A study of Homo sapiens with 60 samples.

Results

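The 9 apolipoprotein genes (APOA1, APOA2, APOA4, APOA5, APOB, APOC3, APOE, APOH and APOM) and MTTP, the gene of the microsomal triglyceride transfer protein, were followed in HepG2 cells treated with herbal extracts. These 10 genes were found by matching symbols to the Ensembl identifiers of the deposited table, and they are 10 of its 60675 genes. All 10 passed the filter on low counts, which left 16924 genes for testing. HepG2 is a human hepatocellular carcinoma line that secretes lipoproteins and keeps part of the hepatocyte programme. Bulk RNA was sequenced after 24 h of treatment in 60 libraries, as 100 bp pairs from a directional kit.

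Water extracts of Yijin-tang and Soshiho-tang, which are decoctions of several herbs, are called yijin and soshiho here. The other extracts, made with ethanol, came from Schisandrae Fructus (schisandra), Liriopis seu Ophiopogonis Tuber (liriope), Longan Arillus (longan), Zizyphi Semen (zizyphus), Polygalae Radix (polygala) and Aucklandiae Radix (aucklandia). Low, medium and high doses were 20, 100 and 500 µg/mL for yijin, soshiho, schisandra, liriope, longan and zizyphus. For polygala they were 10, 50 and 250 µg/mL, and for aucklandia 11.2, 56 and 280 µg/mL. Per the series text, the top dose was lowered where a smaller concentration already reduced viability by 20%. There were 3 libraries for each dose of yijin, schisandra, liriope, longan and zizyphus, 2 for each dose of soshiho (numbered 2 and 3 in the labels), and 1 for each dose of polygala and aucklandia. The vehicle group, dimethyl sulfoxide (DMSO) without extract, had 3 libraries. Its concentration is 0.1% in the sample labels and 2% in the series text. Nothing in the labels says that replicates were separate cultures, so the p-values speak only for how far these libraries differ, part of which may be technical variation.

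Apolipoproteins are the protein part of lipoproteins, the particles that carry triglyceride and cholesterol in blood. APOB is the structural protein of very-low-density lipoprotein, and MTTP loads lipid onto it in the endoplasmic reticulum of liver and intestine. APOA1 and APOA2 are the main proteins of high-density lipoprotein. APOC3 slows and APOA5 speeds the clearance of triglyceride-rich particles through lipoprotein lipase, APOE is a ligand of their receptors, and APOA4 is made mostly in the intestine in humans. APOM carries sphingosine-1-phosphate on high-density lipoprotein, and APOH, also called beta-2-glycoprotein I, binds phospholipid.

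A group of 4 members lies side by side in GENCODE 29 on GRCh38. APOA5 (ENSG00000110243, chr11:116789367-116792420, minus strand), APOA4 (ENSG00000110244, chr11:116820700-116823306, minus), APOC3 (ENSG00000110245, chr11:116829706-116833072, plus) and APOA1 (ENSG00000118137, chr11:116835751-116837950, minus) span 48.6 kb. APOB (ENSG00000084674) lies at chr2:21001429-21044073 on the minus strand, and MTTP (ENSG00000138823) at chr4:99563761-99623999 on the plus strand. APOA2 (ENSG00000158874) is at chr1:161222292-161223631 and APOH (ENSG00000091583) at chr17:66212033-66256525, both on the minus strand. APOE (ENSG00000130203) is at chr19:44905754-44909393 and APOM (ENSG00000204444) at chr6:31652416-31658210, both on the plus strand. The APOM gene, with a median of 62.5 CPM (counts scaled to the normalized size of a library), overlaps BAG6 on the opposite strand, with 484 CPM. The strand setting of the counting is not given in the sources used here, so APOM reads cannot be separated from reads of BAG6 with certainty. The other genes that overlap a member, TRMT10A at MTTP and 4 genes without a coding annotation, had medians of at most 6.41 CPM.

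Promoters are shown for 2 members whose levels moved in the results, APOA5 and APOM, as the 250 bases before the RefSeq start on GRCh38.p14. A RefSeq entry was found for 7 members and not for APOA1, APOB or APOC3. Both strands were searched for AGTCCA and AGGTCA, half-sites of HNF4A and other nuclear receptors, for GCGTG, the core bound by the aryl hydrocarbon receptor, and for TATAAA, the TATA box. Capitals mark the matches, which in these windows are both AGGTCA.
APOA5, chr11:116792421-116792670, minus strand: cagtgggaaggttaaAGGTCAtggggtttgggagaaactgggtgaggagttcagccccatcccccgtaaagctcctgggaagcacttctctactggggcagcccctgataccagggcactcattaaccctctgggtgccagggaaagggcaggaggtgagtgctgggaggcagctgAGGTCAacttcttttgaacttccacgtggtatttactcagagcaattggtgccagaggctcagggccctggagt
APOM, chr6:31655644-31655893, plus strand: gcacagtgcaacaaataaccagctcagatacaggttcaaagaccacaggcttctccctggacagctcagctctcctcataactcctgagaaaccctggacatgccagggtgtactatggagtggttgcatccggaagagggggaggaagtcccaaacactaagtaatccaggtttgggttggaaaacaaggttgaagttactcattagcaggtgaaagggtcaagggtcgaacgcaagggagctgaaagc

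AGGTCA was found in 1 of the 7 member promoters, that of APOA5, at positions -235 and -74 from the start, and in 12.1% of all 34943 promoters of this length. GCGTG was found in APOA4 and in MTTP and in 32.2% of all promoters, AGTCCA in APOA4 and in 9.63%, and TATAAA in no member and in 10.8%. The nearest principal GENCODE start of APOM lies at position -423 from this RefSeq start, and which start these cells used was not tested.

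Library totals ran from 20.7 to 38.0 M (mega) expected counts. All 6 hepatocyte markers looked up (ALB, AFP, SERPINA1, TF, TTR and FGB) were detected in every library, and their sum ran from 6145 to 25148 CPM. Markers of other cell types were summed in lists of 4. The fibroblast sum ran from 6.42 to 21 CPM, with COL1A2 and COL3A1 under 1 CPM in every library and PDGFRB at 6.01 to 19.9 CPM. The endothelial sum ran from 1.55 to 6.45 CPM, with KDR and CDH5 under 1 CPM and PECAM1 at 1.14 to 6.23 CPM. The immune sum ran from 491 to 1747 CPM, with PTPRC under 1 CPM, CD68 at 13.9 to 68.0 CPM and LYZ at 422 to 1704 CPM. The enterocyte sum ran from 82.3 to 364 CPM, with ALPI under 1 CPM, SI at 0 and VIL1 at 82.2 to 363 CPM. Mitochondrial transcripts took 9.5 to 15.9% of counts in the treated libraries of the replicated extracts and 15.2 to 18.4% in the vehicle libraries. Libraries also differed in the balance of short to long transcripts, measured as the mean log2 level of genes with at most 1500 exon bases minus that of genes with at least 5000, members left out. It ran from -0.627 to -0.153 in the 54 libraries of the vehicle and the replicated extracts and from -0.689 to -0.215 in the 6 libraries of polygala and aucklandia. Among the 54, 2 libraries, schisandra low replicate 1 and liriope high replicate 2, stood apart from their replicates (SD of log2 differences 0.249 and 0.213, against 0.076 to 0.162 in the others).

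Levels of different members were compared in vehicle as CPM divided by exon length in kilobases. APOB averaged 1929 ± 114 CPM per kb and APOA2 1927 ± 75.2 CPM per kb (SD, n = 3 here and in the next sentences), a difference smaller than their spread. APOH averaged 785 ± 38.7 and APOA1 722 ± 87.0 CPM per kb, again within the spread. APOE followed at 292 ± 26.1, APOC3 at 63.8 ± 5.75, APOM at 32.5 ± 1.19, MTTP at 13.4 ± 1.05, APOA5 at 9.77 ± 0.491 and APOA4 at 1.46 ± 0.344 CPM per kb, and these steps were larger than the spread. APOB alone took 1.71 to 2.85% of all counts in the 54 replicated libraries. APOA4 was counted 41 to 98 times a library, the fewest of the members. Its SD within groups was 0.16 on the log2 scale, beside 0.17 for APOA2. Over those libraries each member kept to a narrow range, from a highest level 1.54 times the lowest for APOE to 2.19 times for APOA4.

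**Figure D1:**
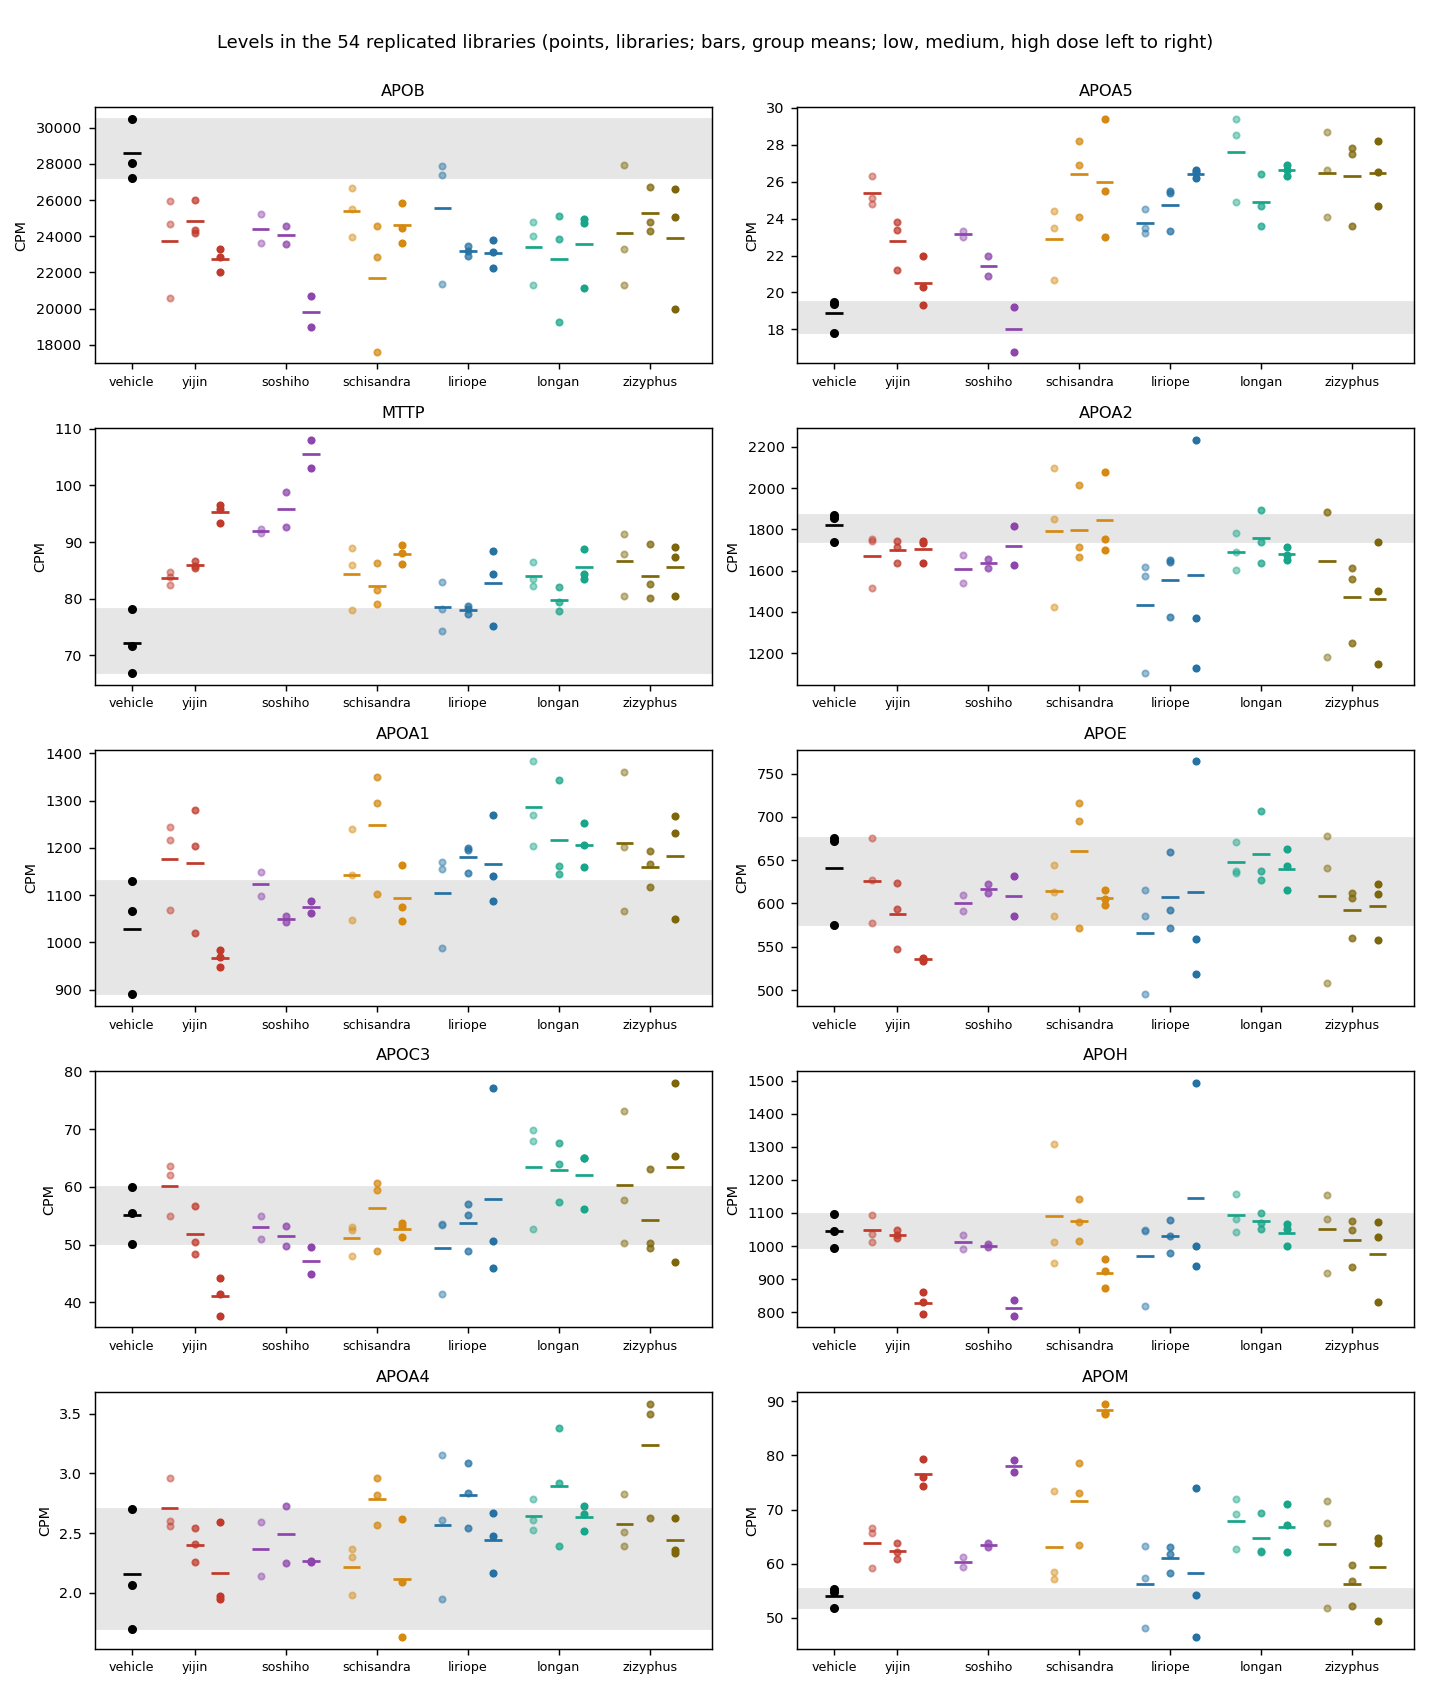
Level of each member in CPM (vertical axes, which do not start at 0) in the 54 replicated libraries. Each point is a library, each bar a group mean, the grey band the range of the 3 vehicle libraries, and the doses of each extract run low, medium, high from left to right. APOA5 lies above the band in 48 of 51 treated libraries and APOB below it in 48 of 51 (42 of 51 as a share of unscaled counts). The APOA5 levels of yijin and soshiho fall back toward the band with dose.

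High dose was compared with low dose within each extract, which asks how the members respond to dose, with edgeR's quasi-likelihood test and Benjamini-Hochberg adjustment over the 16924 genes. A gene is called when its adjusted p is under 0.05, and "rose" and "fell" are used for called genes. In yijin 5 of 10 members were called, beside 7.79% of all genes. In soshiho 1 of 10 was called, beside 5.08% of all genes, and in schisandra 1 of 10, beside 7.33%. No member was called in liriope, longan or zizyphus, where 0.0295%, 0.0177% and 0.0355% of all genes were called. At an unadjusted p under 0.05 those 3 extracts had 1, 0 and 0 members, beside 1360, 395 and 787 of the 16924 genes. DESeq2 called no member in any of these extracts either. Without the filter on low counts, however, members were called in liriope, as counted in the last section. The median log2 change of the 10 members was -0.26 in yijin, -0.06 in soshiho and 0.02 in schisandra, with medians over all genes between -0.01 and 0.01.

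With yijin APOC3, APOA5, APOA1 and APOH fell with dose and MTTP rose, while APOB, APOA2, APOA4, APOE and APOM were not called. APOC3, the inhibitor of lipoprotein lipase, had 37.7, 44.2 and 41.5 CPM at the high dose, against 55.0, 62.0 and 63.6 CPM at the low dose. The groups did not overlap, and APOC3 fell by 0.55 on the log2 scale (SE 0.15, adjusted p = 0.0113 by edgeR). APOA5, which promotes lipolysis, had 19.3, 22.0 and 20.3 CPM at the high dose, against 24.8, 26.3 and 25.1 CPM at the low dose. It too was lower in every high-dose library, and it fell by 0.31 (SE 0.080, adjusted p = 0.00917 by edgeR). APOA1 had 948, 983 and 970 CPM at the high dose, against 1068, 1217 and 1245 CPM at the low dose. The APOA1 groups did not overlap, and the gene fell by 0.28 (SE 0.088, adjusted p = 0.0360 by edgeR). APOH had 831, 861 and 795 CPM at the high dose, against 1013, 1095 and 1036 CPM at the low dose, and fell by 0.34 (SE 0.11, adjusted p = 0.0364 by edgeR). MTTP had 93.3, 96.6 and 95.9 CPM at the high dose, against 84.8, 83.9 and 82.5 CPM at the low dose. All high-dose libraries were above all low-dose ones, and MTTP rose by 0.18 (SE 0.054, adjusted p = 0.0241 by edgeR).

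Over the low, medium and high dose of yijin the group means of APOA1, APOA5, APOC3 and APOH stood in descending order and those of MTTP in ascending order. They also descended for APOA4 and APOE, and ascended for APOA2 (1672, 1699 and 1707 CPM), none of which was called. For the called members the order turns only on the medium dose, and the share of all genes so ordered was not counted. APOA1 (1177 and 1168 CPM) and APOH (1048 and 1035 CPM) differed little between the low and medium dose. APOE averaged 536 ± 1.61 CPM at the high dose and 626 ± 48.9 CPM at the low dose (SD, n = 3 each), a log2 change of -0.23 that was not called (adjusted p = 0.155 by edgeR). APOM averaged 76.6 ± 2.55 CPM at the high dose and 63.8 ± 4.07 CPM at the low dose, with no overlap, a log2 change of 0.26 that was not called (adjusted p = 0.161). APOB and APOA2 had log2 changes of -0.06 and 0.03. The balance of short to long transcripts averaged -0.343 at the high dose and -0.334 at the low dose. With that balance as a covariate, an alternative chosen after seeing the data, the called members remained called and APOE (-0.22, adjusted p = 6.5e-04) and APOM (0.28, adjusted p = 1.4e-04) were called as well. The call of APOH was lost without any of the 6 libraries (adjusted p 0.0597 to 0.137), that of APOA1 without any but low replicate 1 (0.0884 to 0.180) and that of MTTP without any but replicate 1 of either dose (0.0783 to 0.0861). MTTP was not called with library size alone either (0.16, adjusted p = 0.0563). APOC3 was not called without high replicate 1 (0.0684) or low replicate 3 (0.0592), nor APOA5 without high replicate 1 (0.0673). In those fits the log2 change stayed between -0.24 and -0.29 for APOA1 and between -0.31 and -0.36 for APOH.

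All 4 genes of the chromosome 11 cluster had estimates below 0 in yijin, where the median over all genes was 0.00. The 3 of them called, APOC3, APOA5 and APOA1, are among the 5 members counted above, beside 7.79% of all genes. Whether the cluster moved as a unit was not tested. APOA4 averaged 2.17 ± 0.364 CPM at the high dose and 2.71 ± 0.217 CPM at the low dose, a log2 change of -0.31 that was not called (adjusted p = 0.296). Of 8 other genes around the cluster, TAGLN rose (0.33, adjusted p = 0.0126) and SIDT2 fell (-0.18, adjusted p = 0.0325), and their median log2 change was 0.03. Of 8 genes around APOE, BCAM fell (-0.21, adjusted p = 0.0256). Between the doses of soshiho SIK3, near the cluster, rose (0.28, adjusted p = 0.00337 by edgeR). In schisandra RELB, near APOE, rose (0.47, adjusted p = 0.00544 by edgeR).

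Soshiho, with 2 libraries a dose, showed the same sign as yijin for the 5 members called there, with 1 of them called. APOA5 had 19.2 and 16.8 CPM at the high dose, against 23.3 and 23.0 CPM at the low dose, and fell by 0.36 on the log2 scale (SE 0.10, adjusted p = 0.0210 by edgeR). The call was lost without low replicate 2, low replicate 3 or high replicate 3 (adjusted p = 0.137, 0.118 and 0.374), fits in which the lone library left is assumed to vary like those of the other groups. MTTP had 103 and 108 CPM at the high dose, against 91.6 and 92.3 CPM at the low dose, with no overlap and a log2 change of 0.20 that was not called (adjusted p = 0.0631). APOH had 789 and 837 CPM at the high dose, against 1034 and 990 CPM at the low dose, again with no overlap and no call (-0.31, adjusted p = 0.197). APOM (0.37, adjusted p = 0.115) and APOB (-0.30, adjusted p = 0.238) were also separated between the doses without a call. So were APOC3 (-0.16, adjusted p = 0.783) and APOA1 (-0.06, adjusted p = 0.878), by edgeR. With 2 libraries a dose, unchanged genes can easily separate, and the share of all genes that did so was not counted. The balance of transcript lengths averaged -0.288 at the high dose and -0.354 at the low dose. With it as a covariate APOM (0.29, adjusted p = 0.00147), APOH (-0.39, adjusted p = 1.2e-04) and MTTP (0.21, adjusted p = 0.0269) were called in addition to APOA5, and APOB was not (-0.23, adjusted p = 0.0951).

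In schisandra the called member was APOM, the carrier of sphingosine-1-phosphate. APOM had 87.7, 87.8 and 89.5 CPM at the high dose, against 73.5, 57.1 and 58.4 CPM at the low dose. Every high-dose library was above every low-dose library, and APOM rose by 0.49 (SE 0.11, adjusted p = 0.00224 by edgeR). The means were 63.0, 71.7 and 88.4 CPM at the low, medium and high dose. Low replicate 1 is the schisandra library that stood apart, and without it and liriope high replicate 2 the change was 0.61 (adjusted p = 3.9e-05). APOM stayed called in all 14 alternative fits of this comparison, with adjusted p up to 0.0434. APOH averaged 919 ± 44.9 CPM at the high dose and 1091 ± 192 CPM at the low dose (SD, n = 3 each), a log2 change of -0.24 that was not called (adjusted p = 0.175). It was -0.10 without the libraries that stood apart and -0.24 (adjusted p = 0.00336) with the length balance as a covariate. APOA5 averaged 26.0 ± 3.22 CPM at the high dose and 22.9 ± 1.90 CPM at the low dose, a change of 0.19 in the opposite direction to yijin that was not called (adjusted p = 0.140, and 0.0402 without high replicate 1). Without the libraries that stood apart the APOA5 change was 0.11 (adjusted p = 0.61 by edgeR).

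In liriope, longan and zizyphus the log2 changes of the members between high and low dose lay between -0.17 and 0.23. The largest in liriope were those of APOH and APOC3, both 0.23, and both rest on high replicate 2. APOH had 999, 1494 and 941 CPM at the high dose of liriope, against 1044, 1047 and 817 CPM at the low dose. Without the libraries that stood apart the liriope changes of APOH and APOC3 were 0.00 and -0.03. The single member separated between the doses in these 3 extracts was APOA5 in liriope, with 26.5, 26.6 and 26.2 CPM at the high dose, against 24.5, 23.5 and 23.2 CPM at the low dose. That change of 0.15 was not called (SE 0.078, adjusted p = 0.632 by edgeR). In longan the members' changes were between -0.09 for APOA1 and 0.02 for MTTP.

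**Figure D2:**
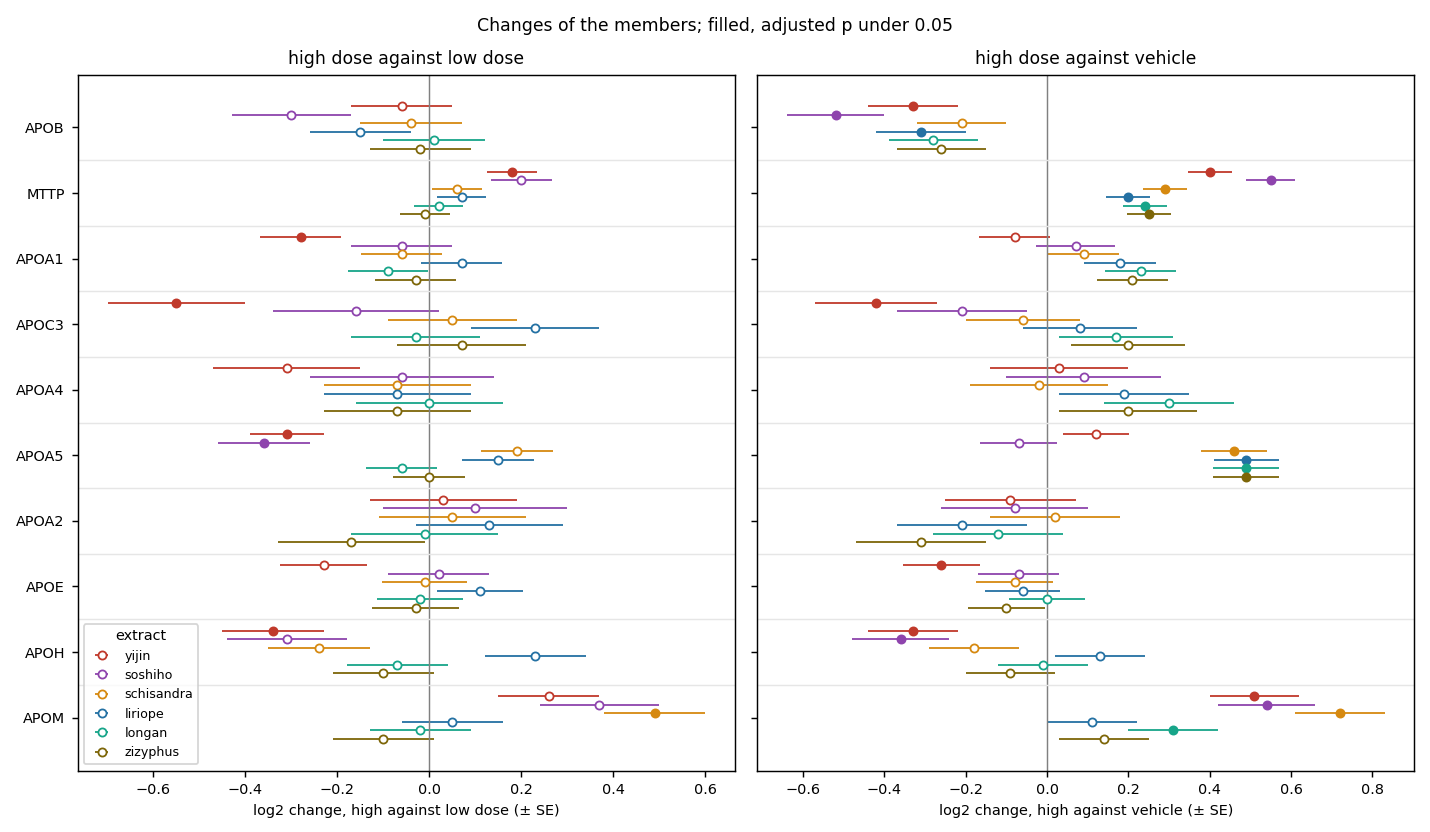
Log2 change of each member (rows) in the 6 replicated extracts (colours), high dose against low dose on the left and high dose against vehicle on the right; bars are ± 1 SE and filled points have an adjusted p under 0.05. MTTP is filled in all 6 extracts against vehicle, and 7 points are filled between the doses, 5 of them in yijin.

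Whether the dose effect itself differs was tested between 4 pairs of extracts at matched doses, with p-values adjusted over genes within each pair. Yijin and soshiho share sample code set 8, liriope and schisandra 9, and longan and zizyphus 10. Schisandra minus yijin crosses code sets, so extract and code set cannot be told apart in it. For yijin minus soshiho no member was called, beside 0.880% of all genes. An unadjusted p under 0.05 was found for 0 members and 1473 of the 16924 genes. For longan minus zizyphus none was called either, beside 0.00591% of all genes, and 0 members and 412 genes had an unadjusted p under 0.05. For liriope minus schisandra none was called, beside 4.11% of all genes, and 2 members and 3097 genes had an unadjusted p under 0.05. The 2 members were APOH, with a difference of 0.47 (SE 0.15, adjusted p = 0.0582), and APOM, with -0.44 (SE 0.16, adjusted p = 0.0958). APOH passed without liriope high replicate 1 or 3, liriope low replicate 1 or schisandra low replicate 2 or 3 (adjusted p 0.0115 to 0.0456), and APOM without schisandra low replicate 1, liriope high replicate 2 or liriope low replicate 3 (0.00476 to 0.0491). Without the libraries that stood apart the APOH difference was 0.10 (adjusted p = 0.826) and the APOM difference -0.77 (adjusted p = 5.9e-04 by edgeR). For schisandra minus yijin 1 member was called, beside 0.957% of all genes. The APOA5 change was 0.19 in schisandra and -0.31 in yijin, a difference of 0.50 (SE 0.11, adjusted p = 0.0162 by edgeR). It was no longer called without the libraries that stood apart (0.42, adjusted p = 0.11), nor without yijin high replicate 1 (0.0617), yijin low replicate 2 (0.0550), schisandra low replicate 1 (0.127) or schisandra high replicate 3 (0.0922). APOC3 differed by 0.60 between schisandra and yijin (SE 0.21, adjusted p = 0.149), which was not called. With length balance as a covariate APOC3 was called there (0.58, adjusted p = 0.00126 by edgeR). That fit also called APOH (0.35, adjusted p = 0.00583) and APOM (-0.59, adjusted p = 2.8e-07) for liriope minus schisandra. A missed threshold does not show that the extracts act alike: for MTTP, yijin minus soshiho was -0.02 with an SE of 0.085, while for APOC3 it was -0.39 with an SE of 0.23.

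Against vehicle the high doses called 6 of 10 members in yijin, beside 23.4% of all genes, and 4 in soshiho, beside 21.8%. They called 3 in schisandra, beside 22.1%, 3 in liriope, beside 16.8%, 3 in longan, beside 19.6%, and 2 in zizyphus, beside 16.9%. All 6 comparisons use the same 3 vehicle libraries, so they are not independent, and the vehicle carries a sample code of its own (C1), so that its coding and the absence of extract cannot be told apart. The mitochondrial share was lower than in every vehicle library in 50 of the 51 treated libraries, and its part in these results was not tested. In bulk RNA a lower level relative to the other genes does not distinguish fewer cells that express a gene from less RNA per cell.

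MTTP was higher than vehicle at the high dose of every replicated extract. It averaged 95.3 ± 1.77 CPM in yijin, 106 ± 3.54 CPM in soshiho, 87.9 ± 1.60 CPM in schisandra, 82.7 ± 6.82 CPM in liriope, 85.5 ± 2.77 CPM in longan and 85.7 ± 4.56 CPM in zizyphus, against 72.2 ± 5.65 CPM in vehicle (SD, n = 2 for soshiho and 3 for the others). The vehicle libraries had 78.2, 66.9 and 71.7 CPM, and the ranges were apart in all extracts but liriope. The log2 changes were 0.40 in yijin (adjusted p = 3.2e-07), 0.55 in soshiho (1.4e-09), 0.29 in schisandra (1.2e-04), 0.20 in liriope (0.00943), 0.24 in longan (0.00123) and 0.25 in zizyphus (9.6e-04), all by edgeR. Each held in every alternative fit except that of liriope, whose adjusted p was 0.128 without vehicle replicate 2, 0.0938 without liriope high replicate 3 and 0.206 when only liriope high and vehicle were fitted. MTTP was already above all vehicle libraries in 15 of 17 low-dose libraries.

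APOA5 was higher than vehicle in the 4 replicated ethanol extracts, whose sample code sets (9 and 10) differ from that of the decoctions (8). At the high dose it averaged 26.0 ± 3.22 CPM in schisandra, 26.4 ± 0.230 CPM in liriope, 26.6 ± 0.313 CPM in longan and 26.5 ± 1.78 CPM in zizyphus, against 18.9 ± 0.952 CPM in vehicle (SD, n = 3 each). No library of these groups overlapped the vehicle libraries, which had 17.8, 19.4 and 19.5 CPM. The log2 changes were 0.46 in schisandra (adjusted p = 4.0e-05) and 0.49 in liriope (3.8e-05), longan (2.4e-05) and zizyphus (3.6e-05) by edgeR, and each held in every alternative fit. At the high dose of yijin and soshiho the changes were 0.12 (adjusted p = 0.308) and -0.07 (adjusted p = 0.685). With library size alone yijin was called, at 0.22 (adjusted p = 0.0485), and soshiho was at 0.03 (adjusted p = 0.882). At the low dose, however, APOA5 averaged 25.4 ± 0.773 CPM in yijin and 23.2 ± 0.237 CPM in soshiho, and all 17 low-dose libraries of the 6 extracts were above all vehicle libraries.

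APOM was higher than vehicle at the high dose of schisandra (0.72, SE 0.11, adjusted p = 4.5e-06), soshiho (0.54, SE 0.12, adjusted p = 0.00102), yijin (0.51, SE 0.11, adjusted p = 5.4e-04) and longan (0.31, SE 0.11, adjusted p = 0.0445) by edgeR. It averaged 88.4 ± 1.02 CPM in schisandra, 78.0 ± 1.60 CPM in soshiho, 76.6 ± 2.55 CPM in yijin and 66.8 ± 4.52 CPM in longan, against 53.9 ± 1.98 CPM in vehicle. These groups did not overlap vehicle, whose highest library had 55.3 CPM. The longan call was lost without any of the 3 vehicle libraries and without longan high replicate 1 or 2 (adjusted p 0.0786 to 0.163). The length balance averaged -0.293 at the high dose of longan and -0.385 in vehicle, and with it as a covariate the longan change was 0.19 (adjusted p = 0.00703).

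APOB, the backbone of very-low-density lipoprotein, was below all vehicle libraries in 48 of 51 treated libraries. As a share of unscaled counts it was below them in 42 of 51. It had 20687 and 18981 CPM at the high dose of soshiho, 21999, 22879 and 23275 CPM at that of yijin and 23807, 22260 and 23118 CPM at that of liriope, against 30508, 27243 and 28069 CPM in vehicle. APOB fell by 0.52 in soshiho (SE 0.12, adjusted p = 0.00108), by 0.33 in yijin (SE 0.11, adjusted p = 0.0186) and by 0.31 in liriope (SE 0.11, adjusted p = 0.0373) by edgeR. In schisandra, longan and zizyphus the changes were -0.21, -0.28 and -0.26 and were not called (adjusted p = 0.152, 0.0558 and 0.0919), although zizyphus passed without its high replicate 3 (0.0384). With length balance as a covariate all 3 were called, schisandra at -0.18 (adjusted p = 0.0467), longan at -0.19 (adjusted p = 0.0433) and zizyphus at -0.26 (adjusted p = 0.00443). Scaling by library size alone, which moves the median of all genes against vehicle up by 0.10 to 0.13, gave -0.43 in soshiho (adjusted p = 0.00849), -0.23 in yijin (adjusted p = 0.117) and -0.21 in liriope (adjusted p = 0.161). The call of yijin was also lost without vehicle replicate 1 (adjusted p = 0.0915) or yijin high replicate 1 (0.0661), and that of liriope without liriope high replicate 2 (0.0838), liriope high replicate 3 (0.0830), vehicle replicate 1 (0.146) or vehicle replicate 3 (0.0530).

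The remaining calls against vehicle were decreases in the decoctions. APOH fell by 0.33 in yijin (adjusted p = 0.0172) and by 0.36 in soshiho (adjusted p = 0.0254), averaging 829 ± 33.4 CPM in yijin and 813 ± 34.5 CPM in soshiho, against 1046 ± 51.5 CPM in vehicle. APOC3 fell by 0.42 (adjusted p = 0.0326) and APOE by 0.26 (adjusted p = 0.0416) in yijin, by edgeR. APOC3 averaged 41.1 ± 3.26 CPM at the high dose of yijin and 55.2 ± 4.98 CPM in vehicle. APOE averaged 536 ± 1.61 CPM at the high dose of yijin and 641 ± 57.3 CPM in vehicle. With library size alone none of these 4 stayed called (adjusted p 0.0563 for APOH in yijin, 0.0573 for APOH in soshiho, 0.0795 for APOC3 and 0.182 for APOE). Left-out libraries also removed them, APOH in yijin without vehicle replicate 1 (0.0735) or high replicate 3 (0.0701), APOH in soshiho without vehicle replicate 1 (0.0815) or either soshiho library (0.189 and 0.0753), APOC3 without vehicle replicates 2 or 3 or high replicates 1 or 3 (0.0692 to 0.125), and APOE without vehicle replicates 2 or 3 or any high-dose library (0.0832 to 0.140). APOA1, APOA2 and APOA4 were called in none of the 6 extracts against vehicle. With 1 library left out, APOA1 passed in longan without vehicle replicate 2 (adjusted p = 0.0309) and in zizyphus without zizyphus high replicate 3 (0.0338). Without liriope high replicate 2, which stood apart, APOA2 (0.00961) and APOE (0.0394) passed in liriope. With length balance as a covariate APOA2 was called lower in soshiho (-0.26, adjusted p = 0.0109), liriope (-0.32, adjusted p = 6.5e-04), longan (-0.29, adjusted p = 0.00181) and zizyphus (-0.35, adjusted p = 2.1e-04), and APOA1 higher in liriope (0.16, adjusted p = 0.0497) and zizyphus (0.20, adjusted p = 0.0125). That fit also called APOC3 (-0.37, adjusted p = 0.00118) and APOE (-0.17, adjusted p = 0.0130) in soshiho and APOH in schisandra (-0.23, adjusted p = 0.00247). With library size alone APOA1 was called higher in liriope (0.27, adjusted p = 0.0240), longan (0.35, adjusted p = 0.00308) and zizyphus (0.32, adjusted p = 0.00706). APOA1 lay above all vehicle libraries in 32 of 51 treated libraries and APOA2 below them in 36 of 51. Such counts, for these and the other members, all use the same vehicle libraries. An offset in vehicle would move them together, and the matching share over all genes was not counted.

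How the members varied between replicates was related to the length balance of the library. Across the 54 libraries, after subtracting each group's mean, the log2 level correlated with the balance at r = 0.91 for APOA2, 0.90 for APOM, 0.89 for APOE, 0.86 for APOC3, 0.85 for APOH and 0.72 for APOA1. APOB, whose exons add up to 14828 bases, had r = -0.77, MTTP -0.24, APOA4 0.22 and APOA5 0.15. These values describe the libraries, which share groups, and carry no p. The SD within groups was smallest for MTTP (0.054) and APOA5 (0.081) and largest for APOA2 (0.17) on the log2 scale. The same members followed each other, with r = 0.91 between APOA2 and APOH and 0.88 between APOH and APOM, against -0.55 between APOA2 and APOB.

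**Figure D3:**
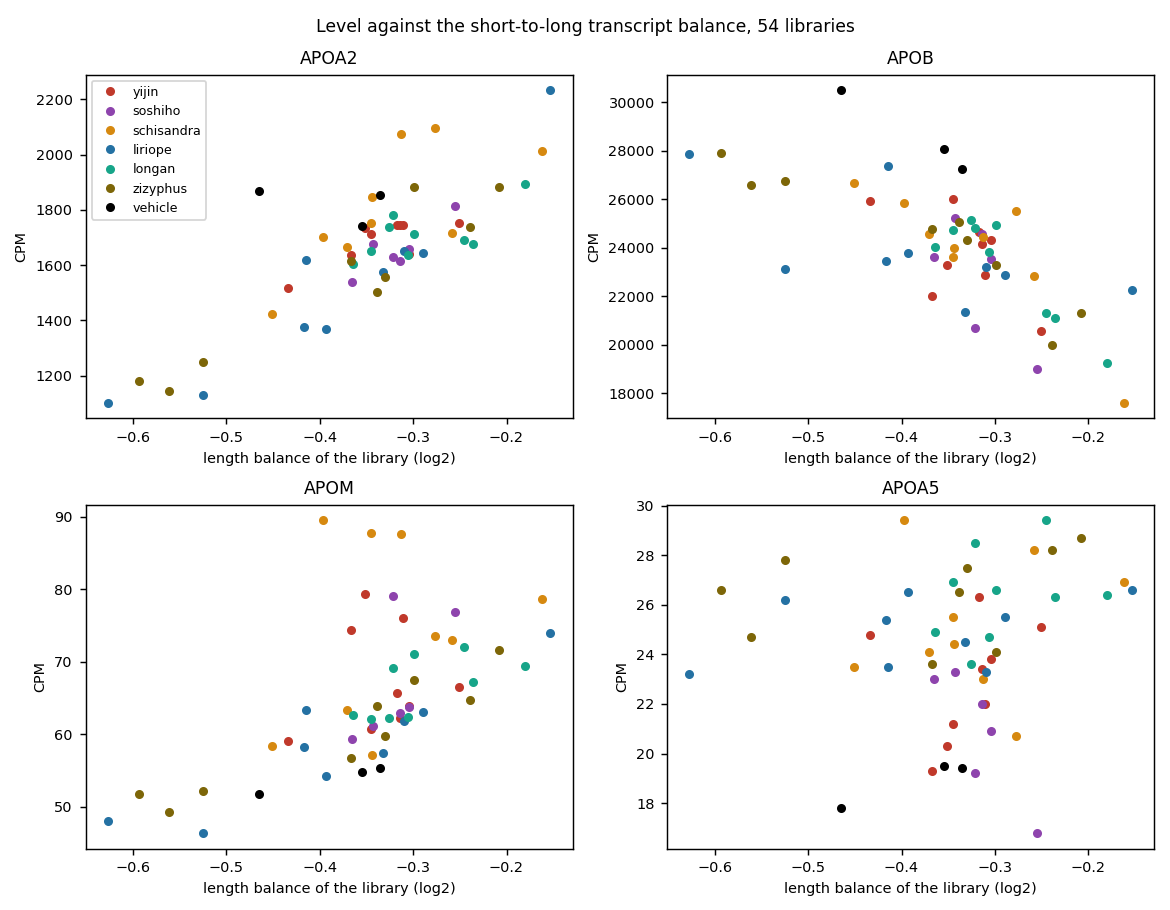
CPM of APOA2, APOB, APOM and APOA5 (vertical axes) against the balance of short to long transcripts in a library (horizontal axes, log2) for the 54 replicated libraries, coloured by treatment. APOA2 climbs and APOB declines along the axis, the 3 high-dose schisandra libraries lie highest in the APOM panel, and APOA5 varies little with it (r = 0.15 within groups).

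Polygala and aucklandia had 1 library a dose, so their changes have no replicate check and no p-value. Their top doses were set by viability, per the series text. At the high dose of polygala all 10 members were at least 1.5-fold lower than at its low dose, where 30.8% of all genes were past 1.5-fold in either direction. Ratios use CPM with 1 added. With 5 added, or with library size alone, 9 members were past it, and APOA4 was not. The length balance was -0.357, -0.523 and -0.505 at the low, medium and high dose, and its part in these values was not tested. APOA5 had 21.8, 19.4 and 4.57 CPM at the low, medium and high dose, a 4.10-fold lower level at the high dose. MTTP had 70.2, 58.9 and 18.5 CPM over the doses (3.65-fold lower) and APOB 25020, 21437 and 11131 CPM (2.25-fold lower). APOE had 717, 565 and 194 CPM, APOH 1088, 759 and 297 CPM and APOA1 986, 964 and 309 CPM, which are 3.68-fold, 3.66-fold and 3.18-fold lower at the high dose. For APOA1, APOA5, MTTP, APOB, APOE, APOH and APOC3 most of the difference lay between the medium and the high dose. APOA2, with 2168, 1342 and 1130 CPM, differed more between the low and the medium dose. APOC3, APOM, APOA2 and APOA4 were 3.01-fold, 2.5-fold, 1.92-fold and 1.57-fold lower. The median log2 change of the members was -1.63 and that of all genes -0.01.

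In aucklandia 7 of 10 members were past 1.5-fold between high and low dose, 6 lower and 1 higher, where 36.7% of all genes were past it. With 5 CPM added or with library size alone the count was 6. The length balance was -0.370, -0.215 and -0.689 at the low, medium and high dose, the last being the lowest of the 60 libraries, and its part in these values was not tested. APOB had 24863, 18420 and 7325 CPM at the low, medium and high dose, a 3.39-fold lower level at the high dose. APOA5 had 19.3, 18.5 and 6.10 CPM (2.86-fold lower). APOC3, APOA2, MTTP and APOM were 1.89-fold, 1.78-fold, 1.71-fold and 1.59-fold lower. APOE had 598, 849 and 555 CPM and was thus highest at the medium dose. APOA4 went the other way with 2.29, 2.47 and 4.42 CPM, a ratio of 1.65 at a level near the least measured here. The median log2 change of the members was -0.72 and that of all genes -0.05.

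**Figure D4:**
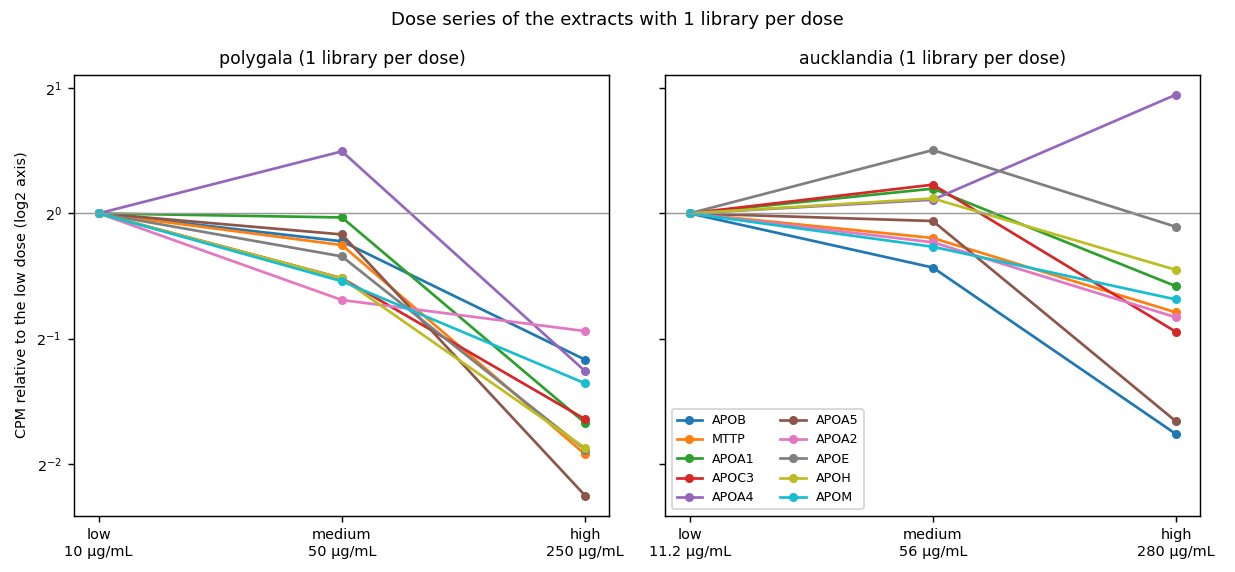
CPM of each member relative to its low-dose library (vertical axis, log2 scale) over the low, medium and high dose of polygala and aucklandia, with 1 library per point and no error. All 10 lines end below 1 at the high dose of polygala, and the APOA4 line ends above 1 in aucklandia.

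Other genes of lipoprotein biology were counted from lists in the same comparisons, where 7.79% of all genes were called between high and low dose of yijin, 5.08% in soshiho and 7.33% in schisandra. These counts describe the lists, and nothing particular to a list was tested. Of 25 genes of lipoprotein assembly and export, 1 rose and 4 fell between high and low dose of yijin, 0 rose and 2 fell in soshiho, and 0 rose and 3 fell in schisandra, with list medians of 0.01, -0.04 and 0.00. DGAT2, which makes triglyceride, fell in yijin (-0.35, adjusted p = 2.7e-07), soshiho (-0.47, adjusted p = 3.9e-08) and schisandra (-0.25, adjusted p = 1.5e-04). DGAT1, the other enzyme of that step, fell in yijin (-0.29, adjusted p = 2.8e-04). CES1, a hydrolase of the hepatocyte, fell in yijin (-0.33, adjusted p = 3.9e-04) and schisandra (-0.28, adjusted p = 0.00264), and ACSL1, which activates fatty acids, in soshiho (-0.40, adjusted p = 1.6e-07) and schisandra (-0.30, adjusted p = 9.0e-07). No gene of the list was called in liriope, longan or zizyphus.

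Of 13 tested genes for enzymes that remodel lipoproteins and their inhibitors, 0 rose and 3 fell in yijin, with a list median of -0.21. These were hepatic lipase LIPC (-0.32, adjusted p = 2.0e-04), the lipase maturation factor LMF1 (-0.29, adjusted p = 0.0429) and endothelial lipase LIPG (-0.28, adjusted p = 0.0253). LIPG also fell in schisandra (-0.39, adjusted p = 8.4e-04), and ANGPTL8, an inhibitor of lipoprotein lipase, fell in soshiho (-0.62, adjusted p = 0.0383). Each was the only gene of that list called in its extract. Of 13 tested genes for lipoprotein receptors and their control, 2 rose and 0 fell in yijin, 3 rose and 1 fell in soshiho, and 3 rose and 0 fell in schisandra, with list medians of -0.05, 0.04 and 0.09. LRP8, a receptor that binds APOE, rose in yijin (0.22, adjusted p = 0.00169) and soshiho (0.42, adjusted p = 8.6e-07). LRP5, a receptor of the same family, rose in yijin (0.20, adjusted p = 0.0349) and schisandra (0.28, adjusted p = 0.00190). CD36 rose (0.59, adjusted p = 0.00155) and MYLIP, a ubiquitin ligase for lipoprotein receptors, fell (-0.57, adjusted p = 0.0341) in soshiho, and VLDLR (0.52, adjusted p = 0.0293) and SORL1 (0.35, adjusted p = 0.00478) rose in schisandra.

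Of 31 genes known to regulate apolipoprotein genes, 0 rose and 8 fell in yijin, 2 rose and 7 fell in soshiho, and 4 rose and 2 fell in schisandra, with list medians of -0.06, -0.05 and 0.02. NR1H4, the bile acid receptor FXR, fell in yijin (-0.61, adjusted p = 4.1e-09), soshiho (-0.87, adjusted p = 1.0e-10) and schisandra (-0.66, adjusted p = 3.8e-10). CEBPA, a hepatocyte transcription factor, fell in yijin (-0.36, adjusted p = 8.3e-05) and soshiho (-0.75, adjusted p = 1.9e-09). SREBF1, a regulator of lipid synthesis, fell in yijin (-0.35, adjusted p = 3.3e-05). CREB3L3 rose in soshiho (0.59, adjusted p = 2.2e-04) and schisandra (0.43, adjusted p = 0.00133), and NR0B2, the repressor SHP, rose in schisandra (0.40, adjusted p = 0.00409). Of 12 other apolipoprotein genes tested, APOL1, the trypanolytic factor carried on high-density lipoprotein, and APOL2 were the ones called between doses. APOL1 rose in yijin (0.48, adjusted p = 3.9e-04) and schisandra (0.73, adjusted p = 3.2e-07), and APOL2 in yijin (0.37, adjusted p = 2.0e-04) and schisandra (0.56, adjusted p = 8.6e-08). All of these adjusted p-values come from the same edgeR fit.

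Genes whose mean log2 level over the 19 replicated groups was most like that of a member were looked up for APOA1, APOB and MTTP, among genes of at least 5 CPM. For APOA1 the closest was PHYH, a peroxisomal hydroxylase (r = 0.94), followed by GDPD3, PSMB8, PIP4P1 and CCS (0.88 to 0.89). For APOB they were PER2, TNKS, WDFY3, DIP2B and LRP1 (0.90 to 0.91). For MTTP they were MBL2, a plasma lectin made by the liver (r = 0.93), MRS2, NQO1, ETFB and PRXL2C (0.90 to 0.92). The groups share depth, scaling and length balance, so these values describe likeness over 19 group means and no more.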

How the data were processed

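Directional MGIEasy libraries were made from RNA of integrity number above 7 and sequenced on an MGIseq machine, per the labels' protocols. The authors deposited expected counts, which per the submitters' processing notes were made with FastQC 0.11.9, Trim Galore 0.6.5, STAR 2.7.3a and RSEM 1.3.3 on hg38. RSEM shares out reads that match several genes. A fraction was present in 10.4% of these values, and all were rounded. Symbols came from a name table (56558 identifiers).

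A single model covered the 54 libraries of the 19 groups with 2 or 3 libraries (edgeR 4.0.16 in R 4.3.3): filter by group, trimmed mean of M values (TMM), quasi-likelihood test, Benjamini-Hochberg adjustment within each comparison, called under 0.05. SEs are the log2 change divided by the square root of F. CPM use TMM over all 60 libraries. The fit was also run on counts simulated from its own means and spread, with libraries drawn independently. Such counts hold no shifts of length balance, libraries that stand apart or differences between code sets, so that run cannot speak to them. Between 51 replicate pairs, 0 were identical, and chi-square per degree of freedom ran from 2.70 to 65.1, so replicates spread beyond counting noise. Alternatives were DESeq2 1.42.0, library size alone, no filter, fits of the compared groups alone, a replicate block and left-out libraries, with 2 more chosen after seeing the data (length balance as a covariate, and leaving out the 2 libraries that stood apart). Wortmannin, named in the series text, is not analysed here. The members, lists and tests were chosen with earlier results of these data known. Named list genes are up to 3 per list and extract with the largest called change between high and low dose. For APOA1, APOB and MTTP, 5 genes of like pattern are named. Some items are not reported here and were left out of the lists.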

Additional observations from a re-analysis of the deposited data

Results flagged for a closer look

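The dose response of APOA5 differed between schisandra and yijin in a test of the difference itself. These extracts lie in different sample code sets (9 and 8), so extract and code set cannot be told apart. APOA5 changed by 0.19 on the log2 scale between high and low dose of schisandra and by -0.31 in yijin, a difference of 0.50 (adjusted p = 0.0162 by edgeR, with 0.957% of all genes called). Over the alternatives of this difference the adjusted p ran from 0.00287 to 0.209 and the value from 0.40 to 0.58.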

How the results depend on the processing

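No member's called change reversed under any alternative run. Of 385 alternative fits of the 29 member calls, 321 kept the call and 64 lost it, and of 1985 fits of uncalled members 84 passed the threshold. The calls that held in all of their alternatives were those of APOM in schisandra between doses, of APOM in yijin, soshiho and schisandra, MTTP in yijin, soshiho, schisandra, longan and zizyphus and APOB in soshiho against vehicle, and of APOA5 in schisandra, liriope, longan and zizyphus against vehicle. The causes of the shifts below were not tested. Not every shift is listed, so a count left out below need not have stayed the same. An extract minus another stands for the difference of their high against low changes.
With DESeq2, all genes called numbered 9 (liriope high against low), 6 (longan high against low), 12 (zizyphus high against low) and 3 (longan minus zizyphus). With library size alone, members called numbered 3 (yijin high against vehicle) and 1 (liriope minus schisandra). Without the filter on low counts, members called numbered 4 (soshiho high against low), 2 (liriope high against low), 2 (schisandra high against low), 5 (liriope high against vehicle), 5 (schisandra high against vehicle), 5 (longan high against vehicle), 6 (zizyphus high against vehicle), 1 (yijin minus soshiho), 2 (liriope minus schisandra) and 2 (schisandra minus yijin), and all genes called 207 (liriope high against low), 63 (longan high against low), 79 (zizyphus high against low), 237 (yijin minus soshiho), 64 (longan minus zizyphus) and 417 (schisandra minus yijin). Fitting only the groups compared, members called numbered 5 (soshiho high against low), 1 (liriope high against vehicle), 5 (schisandra high against vehicle), 5 (longan high against vehicle) and 0 (schisandra minus yijin), and all genes called 1707 (soshiho high against low), 0 (liriope high against low), 132 (schisandra high against low), 0 (zizyphus high against low), 361 (liriope high against vehicle), 1618 (zizyphus high against vehicle), 337 (yijin minus soshiho), 54 (liriope minus schisandra), 0 (longan minus zizyphus) and 3 (schisandra minus yijin). With length balance as a covariate, members called numbered 4 (soshiho high against low), 2 (schisandra high against low), 7 (soshiho high against vehicle), 5 (liriope high against vehicle), 5 (schisandra high against vehicle), 5 (longan high against vehicle), 5 (zizyphus high against vehicle), 2 (liriope minus schisandra) and 2 (schisandra minus yijin), and all genes called 1977 (schisandra high against low), 24 (zizyphus high against low), 245 (yijin minus soshiho), 1098 (liriope minus schisandra), 2 (longan minus zizyphus) and 508 (schisandra minus yijin). Without the 2 libraries that stood apart, members called numbered 4 (soshiho high against low), 1 (liriope minus schisandra) and 0 (schisandra minus yijin), and all genes called 731 (schisandra high against low), 15 (zizyphus high against low), 257 (yijin minus soshiho), 370 (liriope minus schisandra) and 63 (schisandra minus yijin). The polygala count of genes past 1.5-fold was 3372 with 5 CPM added in place of 1.
Same-numbered libraries did not deviate together throughout. Their correlation ran from -0.67 to 0.70 between high and low dose (over 0.1 in 7 of 17 pairs) and from -0.30 to 0.26 between high dose and vehicle. Between high and low dose it was 0.37, 0.05 and 0.25 in longan and -0.12, 0.43 and 0.70 in liriope. In zizyphus it was 0.24, -0.67 and -0.27. Whether the numbers pair the samples within an extract is thus not settled. With a replicate block, members called numbered 1 (liriope minus schisandra), and all genes called 8 (liriope high against low). With a replicate block within each code set, members called numbered 2 (soshiho high against low) and 1 (liriope minus schisandra), and all genes called 11 (liriope high against low), 11 (zizyphus high against low) and 293 (schisandra minus yijin).
With each replicate left out in turn, the members called ranged over 1 to 4 (yijin high against low), 0 to 1 (soshiho high against low), 1 to 2 (schisandra high against low), 3 to 5 (yijin high against vehicle), 1 to 4 (liriope high against vehicle), 2 to 4 (zizyphus high against vehicle), 0 to 1 (liriope minus schisandra) and 0 to 1 (schisandra minus yijin). All genes called ranged over 836 to 1030 (yijin high against low), 454 to 496 (soshiho high against low), 2 to 6 (liriope high against low), 615 to 1825 (schisandra high against low), 0 to 2 (longan high against low), 3 to 7 (zizyphus high against low), 2018 to 3238 (soshiho high against vehicle), 2048 to 2992 (longan high against vehicle), 1867 to 2687 (zizyphus high against vehicle), 65 to 126 (yijin minus soshiho), 354 to 1388 (liriope minus schisandra), 0 to 2 (longan minus zizyphus) and 52 to 519 (schisandra minus yijin). A soshiho group then holds 1 library, assumed to vary like the others.
The share of higher calls under library size alone, against TMM, was 35.9% against 48.6% (yijin high against low), 44.1% against 55.3% (soshiho high against low), 28.6% against 60% (liriope high against low), 29.1% against 53.5% (schisandra high against low), 79.9% against 47.7% (yijin high against vehicle), 77.4% against 48.8% (soshiho high against vehicle), 84.9% against 51.0% (liriope high against vehicle), 79.7% against 49.1% (schisandra high against vehicle), 88.4% against 49.1% (longan high against vehicle), 88.0% against 48.3% (zizyphus high against vehicle) and 46.5% against 56.8% (schisandra minus yijin). Low counts limit APOA4 most.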
